A study of Homo sapiens with 8 samples.

Results

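The 10 genes described here are the transcription factors and surface genes by which epithelial-mesenchymal transition (EMT) is usually followed, namely the factors ZEB1, ZEB2, SNAI1, SNAI2 and TWIST1, the cadherins CDH1 and CDH2, the mesenchymal filament gene VIM, and the epithelial genes EPCAM and ESRP1. They were taken by gene symbol from a deposited table of 17649 genes, and each of the 10 had a row of its own. RNA-Seq was performed on MDA-MB-231 cells, an established estrogen receptor-negative (ER-) human breast cancer cell line with a spindle-shaped, mesenchymal form. In the study, 4 cultures received 1 μM carboxymethyllysine (CML), an advanced glycation end product that arises when reactive sugar products modify lysine residues, for 48 hours in low-glucose medium, and 4 control cultures in the same medium received PBS (n = 4 per group). The comparison asked how this sugar-derived compound changes the transcriptome of breast cancer cells. No source used here says whether the cultures were started independently, so that p-values measure the spread between these 8 libraries, which may be technical. All values come from 1 cell line, at 1 dose and 1 time.

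EMT is the switch in which epithelial cells loosen their junctions and take on the shape and motility of mesenchymal cells. ZEB, SNAI and TWIST proteins are the best-known drivers of the switch, and they bind short E-box sequences in DNA and repress epithelial genes, of which CDH1, encoding E-cadherin, is the classical target. In the other direction, the microRNAs of the miR-200 family repress ZEB1 and ZEB2, and ESRP1 keeps the splicing of many transcripts in the epithelial form. In breast cancer, this balance is known to separate luminal tumor cells, which hold on to E-cadherin, from claudin-low cell lines such as MDA-MB-231, which have largely lost it.

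The sequences below show letters of the miR-200 family in the 3′ UTRs of both ZEB genes and of the E-box near ZEB1 start sites. Mature microRNAs of the miR-200 family, from RefSeq (GRCh38.p14), fall into 2 groups by the seed, bases 2 to 8, which is set in capitals.
miR-200b-3p: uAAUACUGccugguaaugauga
miR-200c-3p: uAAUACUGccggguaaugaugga
miR-429: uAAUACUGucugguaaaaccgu
miR-200a-3p: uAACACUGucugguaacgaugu
miR-141-3p: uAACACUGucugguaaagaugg
The first 3 share the seed AAUACUG and pair with CAGTATT, and the other two share AACACUG and pair with CAGTGTT. Both sets of letters were counted on the transcript strand in the 3′ UTRs of the canonical coding transcripts of the GENCODE annotation, and 27.7% of 19752 such UTRs held at least 1. The 3′ UTR of ZEB1, 2543 bases long, held 9 matches, 6 of CAGTATT and 3 of CAGTGTT, and of the 2614 UTRs from 0.8 to 1.25 times its length, itself included, 0.0383% held as many, which is 1 UTR, its own. ZEB2, with 5373 bases, also held 9, 5 and 4 of the respective letters, as many as 0.163% of 1225 UTRs of like length did, or 2 with its own. ESRP1 held 2 matches and SNAI2 1, whereas SNAI1, TWIST1, CDH1, CDH2, VIM and EPCAM held 0. The first 2 matches in each ZEB gene are given with their surroundings, the match in capitals.
ZEB1, base 372 of the 3′ UTR: tatcttatCAGTATTatcactct
ZEB1, base 466 of the 3′ UTR: atccgcttCAGTATTttattatg
ZEB2, base 211 of the 3′ UTR: attttgtaCAGTGTTaaggccta
ZEB2, base 395 of the 3′ UTR: ccatacatCAGTATTtttattat
A match is a description of the letters, and neither microRNA levels nor their pairing were measured in these libraries. The host transcript MIR200CHG was not among the rows of the table.

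RefSeq promoter windows, which run from 250 bases before to 50 bases after a start site, were matched for 4 of the 10 genes, with 7 windows for ZEB1, 2 for CDH2 and 1 each for ZEB2 and VIM. The E-box CACCTG, which reads CAGGTG on the other strand, was present in 20.6% of all 35116 windows on either strand. Of the 11 windows, 2 held it, both of ZEB1, and the 9 others did not hold these letters. The window at the first ZEB1 start (GRCh38.p14, chr10:31318167-31318466, plus strand) had a single E-box beginning 57 bases before the start, set in capitals.
ZEB1, first start: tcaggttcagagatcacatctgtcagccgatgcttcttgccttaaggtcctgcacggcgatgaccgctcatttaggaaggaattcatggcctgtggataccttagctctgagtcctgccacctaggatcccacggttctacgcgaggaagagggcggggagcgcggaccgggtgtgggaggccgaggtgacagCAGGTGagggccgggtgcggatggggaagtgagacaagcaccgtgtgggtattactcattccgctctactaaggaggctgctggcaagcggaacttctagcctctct
The window at the downstream start (chr10:31318966-31319265, plus strand) held 3 E-boxes, a number that 0.635% of all windows reached.
ZEB1, downstream start: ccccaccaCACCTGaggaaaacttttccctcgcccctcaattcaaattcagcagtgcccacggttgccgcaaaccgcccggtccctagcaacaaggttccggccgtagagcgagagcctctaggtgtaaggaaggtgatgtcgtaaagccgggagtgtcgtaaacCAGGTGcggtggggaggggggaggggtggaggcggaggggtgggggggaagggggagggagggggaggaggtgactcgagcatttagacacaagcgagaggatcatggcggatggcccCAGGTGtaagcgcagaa
No binding was measured at these letters.

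The labels describe an ER- breast cancer cell line, and the markers of other cell types were looked at first. ESR1 had no row, and the progesterone receptor PGR averaged 0.0285 ± 0.0570 CPM in control and 0.0134 ± 0.0268 CPM in CML-exposed cells (SD, n = 4 each). CPM denotes the deposited values, counts scaled to a common library size. The luminal factor FOXA1 lay at 0.0148 ± 0.0296 and 0.0300 ± 0.0347 CPM, whereas keratins of simple epithelia were abundant, with KRT18 the most abundant luminal marker (330 ± 15.8 and 338 ± 16.7 CPM). Of the basal markers, EGFR was the most abundant (923 ± 32.9 and 968 ± 10.2 CPM), and KRT5 and KRT14 had no row. For cells that a culture of this line should not hold, 8 of 8 fibroblast markers had a row, and their sum ran from 14.5 to 16.3 CPM in the control libraries and from 15.8 to 20.4 CPM in the CML-exposed libraries. The fibroblast marker DCN was at 0 in the 4 CML-exposed libraries and at 0.0300 ± 0.0347 CPM in control cells, and COL1A1 was the most abundant of the list (10.6 ± 0.741 and 11.1 ± 1.69 CPM). On average, 7 of the 8 markers were higher with CML and DCN alone was lower. Only 3 of them averaged 1 CPM or more, and these 3 were higher, beside 58.8% of all genes at that level. For the other markers the direction rests on few reads. The fibrillar collagen COL3A1 was at 3.35 CPM in CML-exposed replicate 3, beside 0.116, 0.0535 and 0 CPM in CML-exposed replicates 1, 2 and 4 and at most 0.0605 CPM in control cells. The matrix gene SPARC, which is in the list of mesenchymal effector genes, stood at 6.03 CPM in the same library, where the other seven lay between 0.114 and 0.414 CPM. COL3A1 and SPARC were named after their values were seen. The summed level of the 4 leukocyte markers with a row ran from 155 to 183 CPM, of which the lysosomal CD68 made up the most (172 ± 9.31 and 166 ± 9.27 CPM), while the pan-leukocyte gene PTPRC averaged 0.475 ± 0.179 and 0.280 ± 0.190 CPM. Endothelial markers summed to between 29.3 and 34.4 CPM, with KDR at 28.6 ± 1.43 and 27.4 ± 2.33 CPM, and CDH5 had no row. None of the marker genes of the 5 lists passed the threshold between the groups that is given below. None of the 10 EMT genes passed it without CML-exposed replicate 3 either. The part of other cells in the levels of the EMT genes was not tested.

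Library sizes behind the table were recovered from the step between neighbouring values and came to 16559915 to 17729518 reads in control cells and 16161802 to 18954731 in CML-exposed cells, with 1 read worth 0.0535 to 0.0622 CPM. Precision therefore differed widely between the genes. VIM rested on 64940 to 79305 reads per library and ZEB1 on 1929 to 2288. SNAI1 rested on 7 to 29 reads, CDH1 on 5 to 16, and CDH2 on 1 to 9, where counting error alone is large.

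The mesenchymal gene VIM headed the order of the levels, and both cadherins and TWIST1 stood at its end. Per kilobase of transcript, which allows a comparison between genes, VIM led at 1910 ± 38.6 CPM per kb (SD over all 8 libraries, as below), followed by ZEB1 at 20.9 ± 1.12. EPCAM came next at 9.40 ± 0.886 CPM per kb, and it was above SNAI2 at 5.86 ± 0.481. ZEB2 followed at 2.81 ± 0.192 CPM per kb, then ESRP1 at 0.887 ± 0.102 and SNAI1 at 0.547 ± 0.236. CDH1 was at 0.136 ± 0.0436 CPM per kb, CDH2 at 0.0705 ± 0.0330 and TWIST1 at 0. Neighbours in this order kept it in 8 of 8 libraries, except ESRP1 and SNAI1, where ESRP1 was above SNAI1 in 7 of 8. The ranges over libraries overlapped for this pair and for CDH1 and CDH2, and for no other neighbours. Ranked per kilobase among 17498 genes with a length, VIM stood at place 14, ZEB1 at 3374, EPCAM at 6124, SNAI2 at 7707 and ZEB2 at 9745, while CDH1 was at 14751 and CDH2 at 15335. In each library, the level of VIM per kilobase exceeded that of CDH1 by between 9610 and 29000 times, the latter in a library with 5 reads of CDH1.

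**Figure D1:**
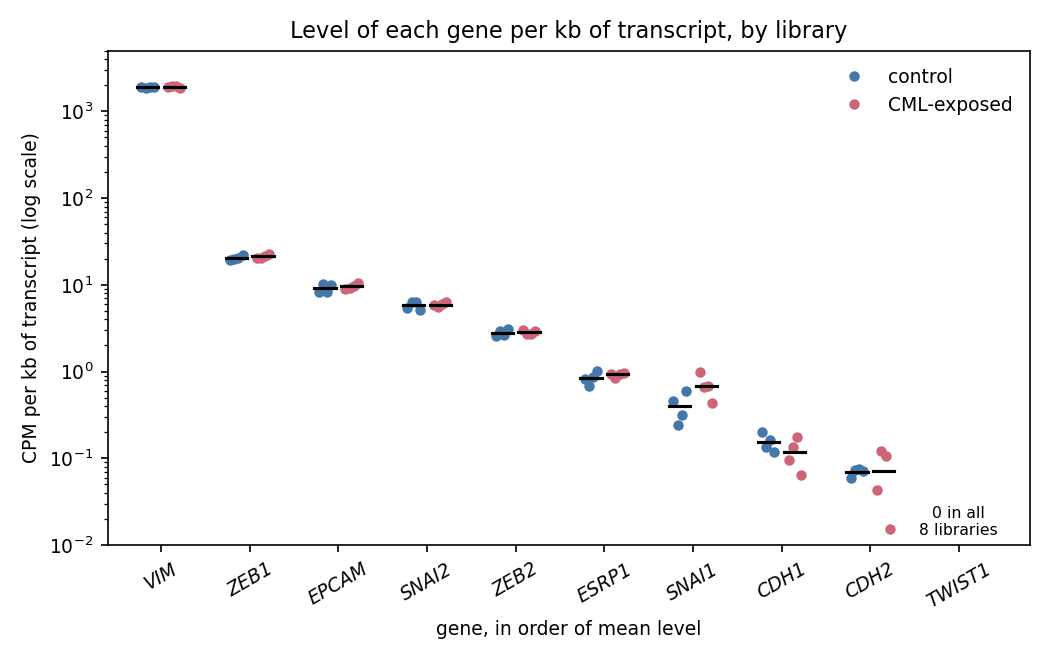
Level of each of the 10 genes in CPM per kb of transcript, on a log axis, with genes ordered by mean level; points are single libraries of control (blue) and CML-exposed (red) MDA-MB-231 cells and black lines are group means. VIM lies at 1860 to 1970, ZEB1 at 19.4 to 22.7, and TWIST1 is at 0 in all 8 libraries.

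None of the 10 genes passed the false discovery rate of 0.3 that the study set for this experiment, where 158 of 17649 genes did (limma, Benjamini-Hochberg adjusted over all genes), 119 higher and 39 lower with CML. That is 0.895% of all genes (0.674% higher and 0.221% lower), a background beside which 0 of 10 is no departure. After the libraries were centred on their median, 46 genes were higher and 27 lower. In the main fit of the values as deposited, none of the 10 had an unadjusted p under 0.05, which 7.66% of all genes had. In none of them did the groups stand apart without overlap, which 3.78% of all genes did. Under some alternatives ZEB1 and SNAI1 had an unadjusted p under 0.05, but neither passed the threshold. The smallest limma p was 0.00631 for ZEB1 (replicate block, adjusted p = 0.345) and 0.00836 for SNAI1 (without both replicate 4 libraries, adjusted p = 0.328). At a stricter rate of 0.05, 0 genes of the table passed in limma, with 1352 genes at an unadjusted p under 0.05. The median log2 fold change of the 10 genes was 0.03, beside 0.01 over all genes tested and 0.01 over genes that averaged 1 CPM or more. Fold changes are on the scale of log2(CPM + 1), which understates the change of low genes, and positive values are higher with CML. A 2-sided exact permutation test over the 70 labellings, whose smallest p is 0.0286, stands beside each gene.

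ZEB1 (chr10:31318417-31529804; coordinates are of GRCh38, the build named in the submitters' processing notes), a zinc finger repressor of epithelial genes, was the most abundant of the 5 factors per kilobase. It measured 115, 119, 120 and 130 CPM in the control libraries and 122, 122, 128 and 135 CPM in the CML-exposed libraries. The groups overlapped, since control replicate 4 lay above 3 of the 4 CML-exposed libraries, although the other three control libraries lay below every one of them. The means were 121 ± 6.46 and 127 ± 6.09 CPM (SD, n = 4 each), with a log2 fold change of 0.07 ± 0.05 (SE, limma adjusted p = 0.84, exact permutation p = 0.2). The 95% interval of the log2 fold change ran from -0.04 to 0.18. Over the alternatives the log2 fold change lay between 0.04 and 0.11 and the limma adjusted p between 0.345, with the replicate block, and 0.929, and it was 0.428 without control replicate 4. The antisense transcript ZEB1-AS1, which overlaps ZEB1 on the opposite strand, measured 4.76 ± 0.474 CPM in control and 4.56 ± 0.793 CPM in CML-exposed cells (limma adjusted p = 0.993), and because the strand setting of the counting is not given, reads of the gene and of its antisense transcript cannot be told apart.

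ZEB2 (chr2:144384081-144520119), its paralog with the same repressor role, was at 23.6, 27.0, 24.4 and 28.6 CPM in control replicates 1 to 4 and at 27.7, 24.8, 25.1 and 27.1 CPM in the CML-exposed replicates. The CML-exposed values all fell within the range of the control values. Its log2 fold change was 0.02 ± 0.07 (limma adjusted p = 1.0, exact permutation p = 0.8; 95% interval -0.14 to 0.18), and this value became negative after the libraries were centred on their median and after GC content and length were removed. Per kilobase, the level of ZEB1 was between 6.85 and 7.97 times that of ZEB2 in the 8 libraries.

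SNAI1 (chr20:49982980-49988886), encoding SNAIL, a short-lived repressor of CDH1, had the largest fold change among the 10 genes, on few reads. Control libraries 1 to 4 held 0.775, 0.414, 0.544 and 1.03 CPM, from 13, 7, 9 and 18 reads. CML-exposed libraries 1 to 4 held 1.68, 1.12, 1.16 and 0.747 CPM, from 29, 21, 19 and 12 reads. In the CML-exposed group, 3 libraries lay above every control library and replicate 4 lay among them, so that the groups overlapped. The mean was 0.690 ± 0.269 CPM in control and 1.18 ± 0.383 CPM in CML-exposed cells, a ratio of 1.71, with a log2 fold change of 0.36 ± 0.16 (limma p = 0.0556, adjusted p = 0.665; exact permutation p = 0.0857). The 95% interval ran from -0.01 to 0.74, and the difference did not pass the threshold. Without both replicate 4 libraries, an alternative added after seeing the data, the log2 fold change was 0.55 ± 0.13 (limma adjusted p = 0.328), and over all alternatives the adjusted p ran from 0.328 to 0.846.

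SNAI2, encoding SLUG, a factor of basal mammary cells and of the same family, was more abundant than SNAI1 in each library, by 5.88 to 26.3 times per kilobase. Its values were 11.8, 13.9, 13.9 and 11.1 CPM in control replicates 1 to 4 and 12.6, 12.2, 13.0 and 13.7 CPM in the CML-exposed replicates. As with ZEB2, the CML-exposed libraries fell inside the range of the control libraries, and the log2 fold change of 0.03 ± 0.08 (limma adjusted p = 1.0, exact permutation p = 0.714) had a 95% interval from -0.17 to 0.22. TWIST1 (chr7:19113047-19117636), a basic helix-loop-helix factor, was at 0 in all 8 libraries, whose 136556110 reads in all allow up to 0.022 CPM by counting error (3 reads over the 8 libraries; 0.161 to 0.187 CPM within a single library). None of 10 housekeeping genes was at 0 in all libraries.

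CDH1 (chr16:68737292-68835537), the adhesion molecule of epithelial junctions and target of the factors above, was barely expressed. It measured 0.954, 0.650, 0.786 and 0.570 CPM in control replicates 1 to 4 and 0.463, 0.642, 0.853 and 0.311 CPM in the CML-exposed replicates. The values were interleaved, with the highest in a control and the lowest in a CML-exposed library. The means of 0.740 ± 0.168 and 0.567 ± 0.234 CPM, from 50 and 39 reads, gave a log2 fold change of -0.16 ± 0.12 (limma adjusted p = 0.875, exact permutation p = 0.257; 95% interval -0.44 to 0.12). In such bulk libraries, fewer cells with a transcript and less of it per cell cannot be told apart.

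CDH2 (chr18:27932879-28177130), encoding N-cadherin, the cadherin that mesenchymal cells classically gain, was lower still in this line. The control libraries were tight, at 0.239, 0.296, 0.302 and 0.285 CPM, while the CML-exposed libraries were spread over 0.174, 0.482, 0.427 and 0.0622 CPM, the last from 1 read. Both the highest and the lowest value were thus of the CML-exposed group, and the means hardly differed (0.280 ± 0.0288 and 0.286 ± 0.201 CPM; log2 fold change -0.01 ± 0.11, limma adjusted p = 1.0, exact permutation p = 0.971; 95% interval -0.26 to 0.25). CDH1 and CDH2 were far below CDH11 and CDH4, although not below every cadherin of the same cells. Per kilobase, the mesenchymal cadherin CDH11 was at 25.7 ± 0.955 and R-cadherin CDH4 at 19.4 ± 1.37 CPM per kb (SD over 8 libraries), the former 189 times the mean level of CDH1. Of the 11 cadherin genes with a level, including CDH1 and CDH2, 3 reached 1 CPM per kb, CDH24 at 1.12 ± 0.258 among them, while CDH15 (0.15 ± 0.0648) was level with CDH1, and CDH18, CDH13, CDH6 and CDH23 had means below both CDH1 and CDH2. These cadherins other than CDH11 were named after their values were seen.

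VIM (chr10:17228241-17237593), the intermediate filament of mesenchymal cells, was among the most abundant transcripts and varied least, by 2.02% (coefficient of variation over the 8 libraries). Its values were 4106, 4014, 4083 and 4069 CPM in the control and 4089, 4243, 4227 and 4041 CPM in the CML-exposed libraries. Replicates 2 and 3 of the CML-exposed group lay above all control libraries and replicate 4 lay below 3 of them. The log2 fold change of 0.03 ± 0.04 (limma adjusted p = 0.952, exact permutation p = 0.229) came with a 95% interval of -0.06 to 0.12, the narrowest of the expressed genes. VIM-AS1, on the opposite strand of VIM, was at 6.85 ± 1.37 and 5.81 ± 0.503 CPM in control and CML-exposed cells (limma adjusted p = 0.845).

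EPCAM (chr2:47369311-47387020), an epithelial adhesion molecule, remained well expressed and measured 12.7, 16.0, 12.8 and 15.4 CPM in control replicates 1 to 4 and 13.7, 14.4, 15.1 and 16.3 CPM in the CML-exposed replicates. The groups overlapped over most of their range, and the log2 fold change was 0.06 ± 0.09 (limma adjusted p = 0.96, exact permutation p = 0.486; 95% interval -0.15 to 0.28). Per kilobase, EPCAM exceeded CDH1 by 41.4 to 163 times in the 8 libraries, and VIM exceeded EPCAM by 178 to 232 times. ESRP1, the epithelial splicing regulator, was at 3.10, 2.60, 3.27 and 3.82 CPM in control and at 3.53, 3.21, 3.53 and 3.67 CPM in CML-exposed replicates 1 to 4. Here the CML-exposed libraries fell within the control range, with a log2 fold change of 0.10 ± 0.09 (limma adjusted p = 0.897, exact permutation p = 0.371; 95% interval -0.12 to 0.32).

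**Figure D2:**
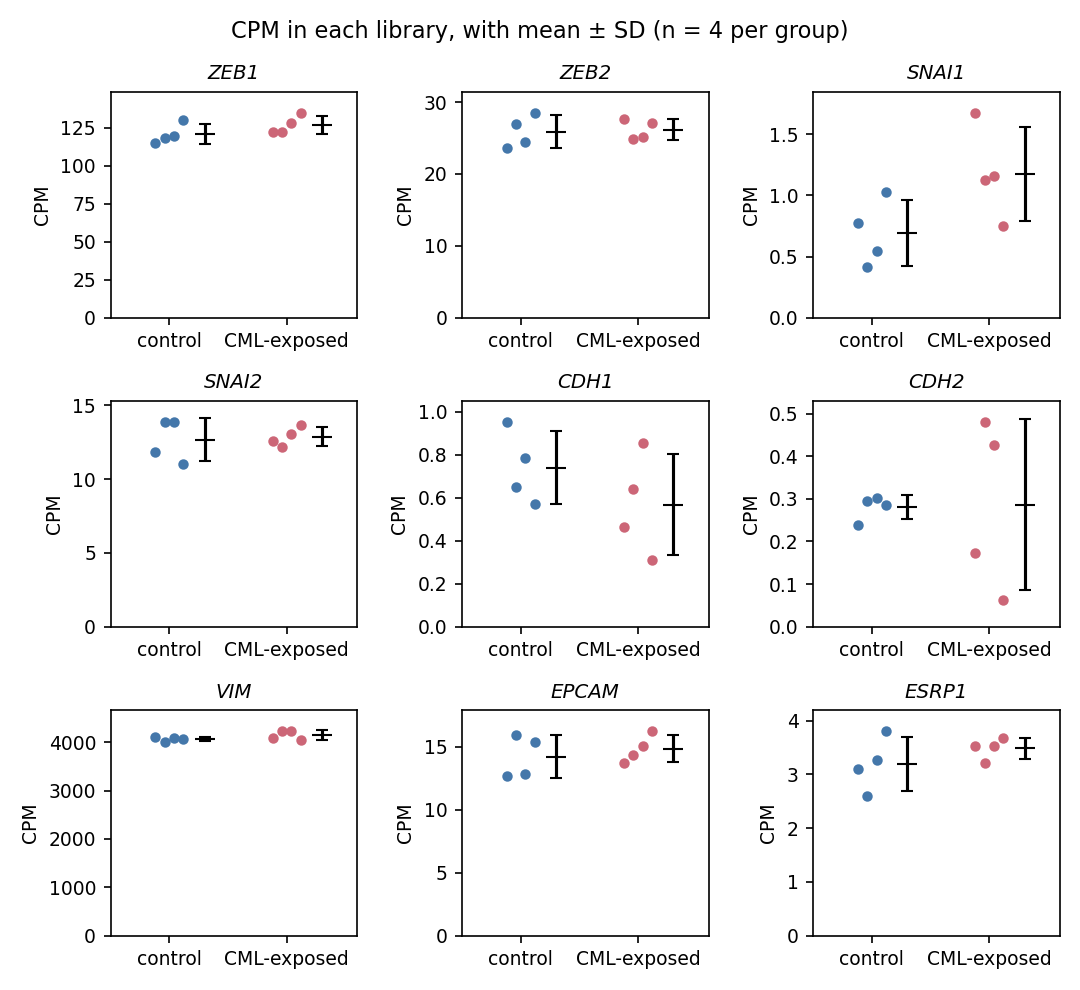
CPM (vertical axes, from 0) of 9 of the genes in the 4 control (blue) and 4 CML-exposed (red) libraries, with mean ± SD beside the points; TWIST1 was at 0 throughout and is not drawn. In each panel the points of the groups overlap, and SNAI1 has the largest ratio of means, 1.71, at 0.414 to 1.68 CPM.

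**Figure D3:**
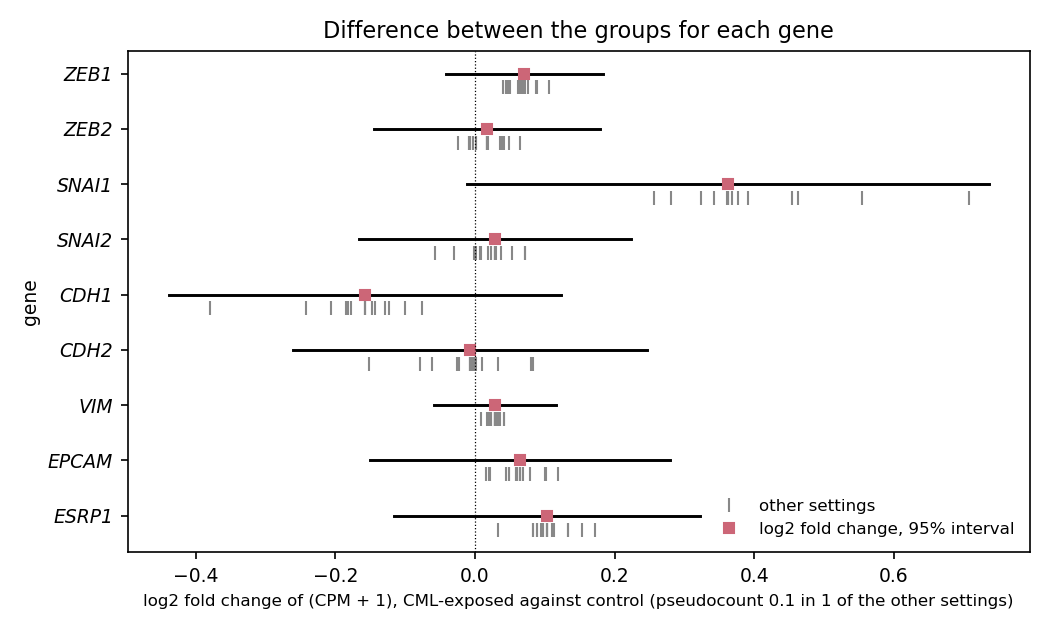
Log2 fold change of (CPM + 1), CML-exposed against control, for 9 genes (red squares) with its 95% interval (black lines), and the value under each alternative setting (gray ticks). Each interval includes 0, and the widest belongs to SNAI1, from -0.01 to 0.74.

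Several of the EMT genes were higher in replicate 4 of both groups. ZEB1 was highest in replicate 4 of both groups, which on average lay 9.51% above the other 6 libraries, and EPCAM (12.3%), ZEB2 (9.34%) and ESRP1 (16.8%) were also higher there, whereas VIM (-1.74%) was not. SNAI2 went opposite ways in the pair, with deviations from its mean over 8 libraries of -13.4% in control replicate 4 and 7.14% in CML-exposed replicate 4. Of the genes with few reads, CDH1 was lowest in replicate 4 of each group, whereas CDH2 and SNAI1 were lowest of their group in CML-exposed replicate 4 but not in control replicate 4, where SNAI1 was highest of its group. In the same libraries, genes of low GC content were high over the whole table. Across 12978 genes, the Spearman correlation of a gene's deviation from its mean with its GC content was -0.53 in control replicate 4 and -0.526 in CML-exposed replicate 4, 0.501 in control replicate 1, and between 0.13 and 0.221 in the other five (genes are not independent replicates). The transcripts of ZEB1 (38.9% GC) and ZEB2 (39.0%) had the lowest GC content of the 10 genes, and those of SNAI1 (58.4%) and TWIST1 (57.2%) the highest. The part of GC content in these differences between libraries was not tested gene by gene, but removing GC content and length from each library, or leaving out both replicate 4 libraries, gave 0 called of the 6 genes and of the 10 genes tested, while the share of all genes called became 6.74% (7.15% with the replicate number as a block) and 1.82%. The block alone gave 1.07% and leaving out control replicate 4 gave 3.91%, again with 0 of the 10 genes. As a description over 8 libraries that share these properties, the levels of ZEB1 and EPCAM had a Pearson correlation of 0.7, ZEB1 and ESRP1 of 0.745, and ZEB1 and ZEB2 of 0.553. EPCAM and ESRP1 had one of 0.097, ZEB1 and VIM of 0.00971, ZEB1 and SNAI2 of -0.0126, and ZEB2 and VIM of -0.501.

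**Figure D4:**
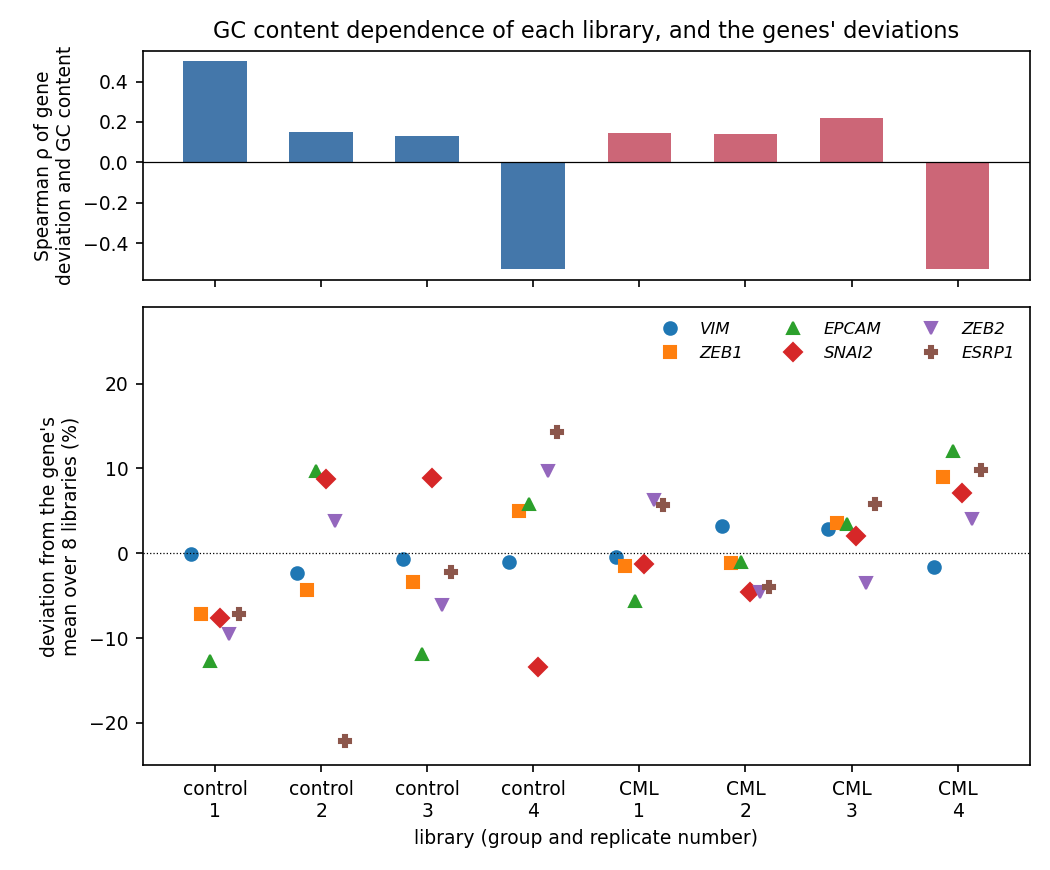
Upper panel, Spearman correlation per library (control blue, CML-exposed red) between the deviation of 12978 genes from their mean and their GC content; lower panel, deviation in percent of the 6 genes that averaged 1 CPM or more from their own mean over 8 libraries. Control and CML-exposed replicate 4 stand apart at -0.53 and -0.526, and ZEB1 lies 5.03% and 8.98% above its mean there.

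Genes whose profile over the 8 libraries was most like that of a member were looked for among 9410 genes that averaged 10 CPM or more, by Pearson correlation of log2(CPM + 1). AZIN1 (0.976) and FAR1 (0.975) were closest to ZEB1, ZNF383 (0.991) and NXT2 (0.976) to ZEB2, and KCNK6 (0.911) and KLHL29 (0.901) to SNAI2. SARS (0.98) and ASCC2 (0.948) were closest to VIM, and RAB1A (0.972) and IFRD1 (0.961) to EPCAM. These correlations are a description over 8 libraries, which share their depth and GC content across all genes.

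The wider network was followed in 9 lists, of whose 177 genes 149 had a row and 118 averaged 1 CPM or more. None passed the threshold at a false discovery rate of 0.3 (limma adjusted over all genes), and 7 of the 149 (4.7%) had an unadjusted p under 0.05, beside 7.66% of all genes. Of the 118 genes, 82 had a positive and 36 a negative log2 fold change, with a median of 0.03, beside a median of 0.01 and 58.8% positive over all genes at that level. As deposited, the median difference between the groups over these genes was 0.01 on the log2 scale, and it became -0.005 after centring.

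Among the other EMT transcription factors, 9 of 18 had a mean of at least 1 CPM, 5 with a positive and 4 with a negative log2 fold change. SOX9, a factor of mammary stem cells, was at 88.2 ± 1.895 CPM in control and 83.1 ± 2.27 CPM in CML-exposed cells (log2 fold change -0.09 ± 0.02, limma adjusted p = 0.441, exact permutation p = 0.0571). ETS1, an invasion-related factor, measured 528 ± 19.8 and 561 ± 18.4 CPM (0.09 ± 0.03, limma adjusted p = 0.607, exact permutation p = 0.114), and TGIF1, a corepressor of TGF-β signaling, 138 ± 5.22 and 141 ± 0.640 CPM. SOX9 and ETS1 passed the threshold in some alternatives, as described with the processing. TWIST2, PRRX2 and GSC were at 0 in all libraries, like TWIST1. Per kilobase, ETS1 (106 ± 4.86 CPM per kb over 8 libraries), TGIF1 (43.9 ± 1.23) and SOX9 (21.8 ± 0.850) were above ZEB1 or close to it.

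Of the epithelial transcription factors and splicing regulators, 13 of 20 had a row and 10 a mean of at least 1 CPM, 5 higher and 5 lower. EHF, an epithelial ETS factor, was at 130 ± 5.71 and 138 ± 3.95 CPM (limma adjusted p = 0.656, exact permutation p = 0.0857). ESRP2, the paralog of ESRP1, was at 7.46 ± 0.583 and 8.49 ± 0.887 CPM (adjusted p = 0.747 in limma) and, per kilobase, at 2.33 ± 0.259 over all libraries, above the 0.887 ± 0.102 of ESRP1. The splicing factors that favor mesenchymal isoforms were far more abundant, with QKI at 215 ± 11.9 and 228 ± 11.2 CPM and RBFOX2 at 168 ± 6.61 and 173 ± 1.51 CPM.

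As deposited, 17 of 17 corepressors with which SNAI and ZEB proteins act had a positive log2 fold change, between 0.01 and 0.12, with a median of 0.04 and 0 genes called, whereas after centring 14 and after quantile normalization 13 were positive. The arginine methyltransferase PRMT5 (296 ± 4.07 and 305 ± 8.42 CPM) and the polycomb subunits SUZ12 (77.5 ± 4.82 and 82.6 ± 2.80 CPM) and EZH2 (42.1 ± 3.02 and 45.8 ± 2.78 CPM) had the smallest p of this list (limma adjusted p = 0.743, 0.743 and 0.747). LOXL2, an amine oxidase that binds SNAI1, was the most abundant at 442 ± 30.5 and 451 ± 17.4 CPM. Of the genes that control the stability of SNAI and TWIST proteins, 13 of 15 at or above 1 CPM had a positive value and 2 a negative one, and after centring the split was 9 to 6. FBXL14, a ubiquitin ligase subunit for SNAI1, was at 4.23 ± 1.12 and 5.20 ± 0.689 CPM (adjusted p = 0.82 in limma), and its relative FBXL5 at 68.9 ± 2.37 and 71.3 ± 2.07 CPM. The deubiquitinase USP3, listed as AC007950.1, was at 51.5 ± 1.26 and 53.0 ± 1.20 CPM. The kinase CSNK1A1 (304 ± 9.26 and 309 ± 10.8 CPM) and the deubiquitinase USP9X (216 ± 12.5 and 224 ± 9.998 CPM) were the most abundant of this list.

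The other cadherins and the catenins, which tie cadherins to actin, split into 6 positive and 5 negative values among 11 genes at or above 1 CPM. CDH11 was at 169 ± 5.54 CPM in control and 177 ± 4.49 CPM in CML-exposed cells (log2 fold change 0.07 ± 0.03, limma adjusted p = 0.635, exact permutation p = 0.0571). The epithelial P-cadherin CDH3 was at 1.71 ± 0.216 and 1.43 ± 0.246 CPM and plakoglobin JUP at 60.2 ± 4.19 and 65.4 ± 4.67 CPM, with adjusted p values of 0.76 and 0.785 in limma. The catenins CTNNA1 (761 ± 25.5 and 781 ± 19.0 CPM) and CTNNB1 (374 ± 17.8 and 379 ± 6.71 CPM) were expressed at high levels although their partner CDH1 was not.

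Junction and polarity genes comprised 23 at or above 1 CPM, of which 14 were positive and 9 negative. OCLN, a tight junction protein, measured 53.3 to 60.9 CPM in control and 50.3 to 52.4 CPM in CML-exposed cells, with no overlap between the groups (log2 fold change -0.13 ± 0.04, limma p = 0.0143, adjusted p = 0.485, exact permutation p = 0.0286, the smallest that 4 against 4 libraries can give). It passed the threshold after removal of GC content and length (-0.16, limma adjusted p = 0.0607, and 0.0818 with the replicate block) and without control replicate 4 (-0.09, limma adjusted p = 0.264). It was 1 of 118 listed genes of this level without overlap, beside 3.78% of all genes. MARVELD2 (9.57 ± 0.683 and 8.37 ± 0.685 CPM) and F11R (59.1 ± 2.82 and 55.8 ± 1.14 CPM), which also belong to tight junctions, were lower on average with CML, at adjusted p values of 0.653 and 0.68 in limma. The protease inhibitor SPINT2 (303 ± 13.0 and 308 ± 3.44 CPM) and desmoplakin DSP (208 ± 8.50 and 215 ± 4.51 CPM) were the most abundant. Of 8 keratins, 5 were positive and 3 negative. KRT18 is given above, and KRT19 was at 289 ± 22.6 and 302 ± 22.5 CPM, KRT8 at 213 ± 23.6 and 230 ± 14.6 CPM, KRT7 at 131 ± 8.40 and 137 ± 6.93 CPM, and KRT86 at 3.13 ± 0.317 and 2.83 ± 0.258 CPM.

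The mesenchymal effector genes were positive in 17 and negative in 5 of 22 genes, and positive in 16 after centring. The integrin ITGB3 (6.02 ± 0.265 and 7.06 ± 0.627 CPM, limma adjusted p = 0.553, exact permutation p = 0.0571) and the actin-binding TAGLN (2.90 ± 0.512 and 3.81 ± 0.578 CPM, limma adjusted p = 0.63, exact permutation p = 0.0857) did not pass the threshold. TAGLN passed it after removal of GC content and length with the replicate block (log2 fold change 0.30, limma adjusted p = 0.287). Fibronectin FN1 (2020 ± 85.5 and 2068 ± 51.6 CPM) and the integrin ITGB1 (1526 ± 70.4 and 1563 ± 46.7 CPM) were the most abundant. The list of antisense and overlapping transcripts had 4 rows, with 3 of 3 genes at or above 1 CPM negative. Besides ZEB1-AS1 and VIM-AS1, this was SNHG32, listed as C6orf48, which overlaps none of the 10 genes (265 ± 11.9 and 255 ± 6.80 CPM, limma adjusted p = 0.832).

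**Figure D5:**
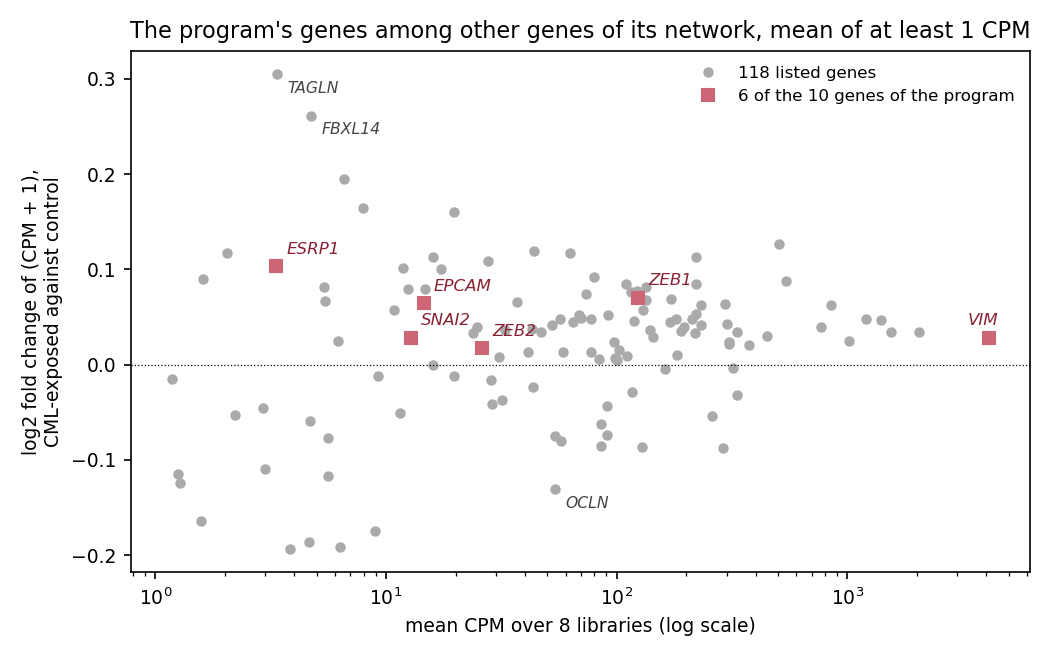
Log2 fold change of (CPM + 1), CML-exposed against control, against mean CPM over the 8 libraries (log axis) for 118 listed genes of the EMT network (gray) and the 6 EMT genes of the report that averaged 1 CPM or more (red squares). None passed the threshold, and the 6 lie between 0.02 and 0.10.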

How the data were processed

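The deposited values are CPM, 1 column for each of 8 libraries and 17681 rows, and the submitters' processing notes name edgeR and hg38. The columns summed to between 986730 and 1014124. For these libraries, the aligner, the counting tool and its strand setting are not given in the sources used here. The paper's methods for the tumors name Tophat, an earlier human genome build and a stranded library preparation. Both a NextSeq and a HiSeq appear in the labels, and the paper's methods for the CML-exposed cells name a HiSeq. Reads were estimated from the value of 1 read in each library; because 85.1% to 86.1% of values came out whole (tolerance 0.02 reads), no count test was run.

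From the deposited values, rows of 1 symbol were averaged (17649 genes) and log2(CPM + 1) was fitted in R 4.3.3 by limma 3.58.1 with a variance trend, control against CML, 2-sided, with Benjamini-Hochberg adjustment over all genes at a false discovery rate of 0.3. The calculation was tested on simulated data. Intervals are 95% and come from that fit. Limits at 0 use 3 reads and cover counting error only. Levels per kilobase, 3′ UTRs and GC content used canonical GENCODE transcripts lifted to GRCh37, and coordinates, promoter windows and microRNAs used RefSeq GRCh38.p14. Python 3.11.15 with matplotlib 3.10.9 drew the figures.

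The 10 genes and the lists were chosen with earlier results of these data known. Named were, for each list, called genes, the 3 smallest p and the 2 highest means among genes with at least 1 CPM, the most abundant gene per marker list, and the 2 genes most like each member with a mean of at least 10 CPM. Not every selected gene is reported here. Genes outside this rule are said to be so or are given as defining markers or genes at 0. Alternatives used 0.1 as pseudocount, only genes averaging 1 CPM or more, separate rows, median centring, quantile normalization, no trend, the replicate number as a block, removal of GC content and length, and each library left out.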

Additional observations from a re-analysis of the deposited data

Results flagged for a closer look

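Within each group of 4, Dixon's 95% criterion marked a library that lay far from its neighbours, which happens by chance in about 1 of 20 groups. Of 149 groups looked at, 17 were marked, beside 7.45 by that rate, and none belonged to the 10 EMT genes. Some of the groups were of genes named after their values were seen. In CML-exposed replicate 4, ETS1 was at 588 CPM, where the other three libraries lay between 550 and 554 CPM. FBXL14 was at 4.17 CPM there, beside 5.46 to 5.61 CPM in the others, KRT8 at 208.0 CPM, beside 235 to 239 CPM, and the polarity gene LLGL2 at 15.9 CPM, beside 22.4 to 23.0 CPM. Control replicate 4 held 15.2 CPM of LLGL2, beside 19.4 to 19.98 CPM, and 120.0 CPM of CDH4, beside 137 to 138 CPM. In CML-exposed replicate 3, SPARC was at 6.03 CPM (0.174 to 0.375 CPM in the others), COL3A1 at 3.35 CPM (0 to 0.116 CPM) and CDH24 at 5.06 CPM (2.80 to 3.16 CPM). TPM1 was at 68.9 CPM in CML-exposed replicate 1, beside 70.4 to 70.6 CPM. The fibroblast marker PDGFRA was at 0.498 CPM in CML-exposed replicate 4, beside 0 to 0.0609 CPM. The others were values in 1 library where the other three of its group were at 0, namely PGR (0.114 CPM in control replicate 4 and 0.0535 CPM in CML-exposed replicate 2), FOXA1 and CDH6 (each 0.0591 CPM in control replicate 2), and COL3A1 and CDH23 (each 0.0605 CPM in control replicate 3). Where the other libraries of a group are at 0, any value above 0 meets the criterion. The rate of 1 in 20 does not hold for such groups, which the count of 17 includes. The cause was not tested.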

How the results depend on the processing

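None of the 153 alternative values of 9 EMT genes was called, and 14 of these reversed in direction. TWIST1, at 0 in all libraries, has no such value. ZEB2 became -0.0022 (log2 fold change, as below) after centring and -0.0067 after removal of GC content and length, without or with the replicate block, and ran from -0.025 to 0.0642 with single libraries left out. SNAI2 ran from -0.0299 to 0.0722 with single libraries left out and was -0.0573 without both replicate 4 libraries. CDH2 was 0.0102 after quantile normalization, -0.0794 to 0.0806 with single libraries left out, and 0.0824 without both replicate 4 libraries. SNAI1 remained positive, from 0.26 to 0.71, the latter with a pseudocount of 0.1. With single libraries left out, CDH1 ran from -0.2424 to -0.076, ZEB1 from 0.0407 to 0.106, EPCAM from 0.0162 to 0.1189 and ESRP1 from 0.0323 to 0.1723. VIM ran from 0.0176 to 0.0411 in these settings and was 0.0088 after centring. With a pseudocount of 0.1, CDH1 was -0.3799 and CDH2 -0.1524.

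The count of genes called in the table changed more. It was 73 (46 higher, 27 lower) after centring, 875 (550 higher, 325 lower) after removal of GC content and length, 928 (589 higher, 339 lower) when the replicate block was added, and 321 without both replicate 4 libraries, which was added after seeing the data. With single libraries left out it ran from 20 (without CML-exposed replicate 2) to 690 (without control replicate 4). Listed genes called were 1 of 118 with a minimum mean of 1 CPM, 2 of 149 (ETS1 and SOX9) with the replicate block alone, and 4 of 149 (CDH4, ETS1, LLGL2 and SOX9; 2.68%, beside 1.82% of all genes) without both replicate 4 libraries. After removal of GC content and length they were 11 of 118 (9.32%, beside 6.74%), among them CD44, ETS1, JUP, KRT8, MSN and S100A4 (higher) and CDH4, OCLN, SOX9 and TNC (lower). They were 13 of 118 (11%, beside 7.15%) with the block added, QKI and TAGLN (higher) among them. With single libraries left out they ran from 0 to 6 of 149, the 6 (4.03%, beside 3.91%) without control replicate 4, namely CD44, EHF, ETS1 and TPM1 (higher) and OCLN and SOX9 (lower). Removal of GC content and length tested only the 12978 genes that averaged 1 CPM or more and had known properties. The cause of the other changes was not tested.

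Same-numbered libraries correlated at 0.126, -0.0279, 0.0445 and 0.409 in their deviations from the group means, and because not all 4 were above 0.1 the numbers were not taken to pair the samples, although both replicate 4 libraries deviated together. Of the 8 libraries, 3 correlated best with their own number. With the replicate block, 189 genes were called, beside 158 without. Depth limits SNAI1, CDH1 and CDH2, which rested on at most 29 reads per library.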
